A study of Ovis aries with 8 samples.

Results

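Red blood cell transcripts in fetal sheep lung were read by 7 of the 15008 probes of the array. They stand for 4 of the 1026 transcripts that could be named: HBB, the adult beta chain of haemoglobin (2 probes), the fetal beta chain (1 probe), the alpha haemoglobin stabilising protein AHSP (2 probes) and carbonic anhydrase I, CA1 (2 probes). Probes were chosen by gene name or by a haemoglobin or carbonic anhydrase I description, not by their values. The set itself was chosen with earlier results of these data known. All 7 were well above background on all 8 arrays and none was saturated.

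The lungs came from sheep fetuses at about 130 days of a gestation of 147 days. Of the 2 groups, the aldosterone group held 4 fetuses, each given 0.2 mg of aldosterone by an infusion of 48 h, and the control group held their 4 twins, given vehicle. All fetuses had been operated on, and infusions began 5 days after that surgery. Each array was hybridised with RNA from the lung of 1 fetus, and the sources used here do not say whether blood was flushed out.

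Red cell precursors and young red cells carry large amounts of globin messenger RNA, which is lost as the cells mature. In the sheep fetus they are made in the liver and then in the bone marrow, and around birth the fetal beta chain is replaced by the adult one. AHSP is a chaperone, described in human and mouse, that holds free alpha globin until it pairs with a beta chain. CA1 hydrates carbon dioxide in red cells, and in human blood it is scarce in fetal cells and becomes abundant after birth. In RNA from lung tissue, fewer red cells and less RNA per red cell cannot be told apart.

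The probes are shown because they set what can be told apart. HBB probe 1 lists the RefSeq transcripts of both HBB and the neighbouring gene with the synonym HBBC, the juvenile beta chain, so these 2 gene products are read together. Whether it also reads the fetal beta chain transcript was not checked. The AHSP probes are offset by 1 base: they share 59 of 60 bases, given in capitals, and are therefore repeat readings of 1 sequence. Each is printed 5′ to 3′ as the array's scanner files give it, and HBB probe 1 has no part in capitals.
HBB probe 1: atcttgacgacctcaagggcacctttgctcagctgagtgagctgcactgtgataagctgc
AHSP probe 1: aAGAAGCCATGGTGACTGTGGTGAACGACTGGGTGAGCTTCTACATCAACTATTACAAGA
AHSP probe 2: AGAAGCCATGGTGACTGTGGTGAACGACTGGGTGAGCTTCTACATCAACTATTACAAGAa
The 3 beta globin probes shared no run of more than 7 bases with each other, and no member shared more than 15 bases on the same strand with any probe outside the set. That compares probes with probes only, so it cannot tell whether a probe also binds the transcript of another beta chain. In the RefSeq table of the sheep assembly, used for names and neighbours, HBB and HBBC lie on chromosome 15, AHSP on chromosome 24 and CA1 on chromosome 9, so the transcripts come from 3 chromosomes. That table was not matched to the fetal beta chain probe.

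The level used here is log2 of the processed signal less the 75th percentile of the array, so 0 is the 75th percentile of all spots. HBB probe 1 had levels of 4.57, 6.86, 5.68 and 4.77 in aldosterone lungs 1 to 4, against 5.09, 7.18, 6.73 and 4.48 in control lungs 1 to 4. The groups overlapped, and the lungs numbered 2 were the highest of their groups, with aldosterone lung 1 and control lung 4 the lowest of theirs. The mean was 5.47 ± 1.04 in aldosterone lungs and 5.87 ± 1.29 in control lungs (SD, n = 4 each), a log2 difference of -0.40 ± 0.69 (SE in limma), or 0.758-fold. The interval of that difference (95%, limma) ran from -1.96 to 1.17.

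HBB probe 2 had levels of 2.64, 4.83, 3.50 and 2.93 in aldosterone lungs, against 3.52, 4.46, 5.22 and 2.95 in control lungs. Here control lung 3 was the highest of all and the groups again overlapped. Its log2 difference was -0.56 ± 0.58 (SE, n = 4 per group).

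The fetal beta chain had levels of -1.52, 0.93, 0.30 and -0.61 in aldosterone lungs, against -1.69, 1.33, 0.94 and -1.29 in control lungs. Lungs 2 and 3 of both groups lay above 0 and lungs 1 and 4 of both groups below it. Its log2 difference was -0.04 ± 0.77, with 2 pairs lower and 2 higher.

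AHSP probe 1 had levels of -3.71, -1.09, -3.96 and -5.10 in aldosterone lungs, against -3.39, -0.79, -2.07 and -4.72 in control lungs. The span from aldosterone lung 4 to control lung 2 was 19.8-fold, and control lung 4 lay below 3 of the 4 aldosterone lungs. The log2 difference between groups was -0.72 ± 0.99, or 0.606-fold, with an interval from -2.96 to 1.52. AHSP probe 2, the repeat reading, gave -0.73 ± 1.05.

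CA1 probe 1 had levels of -2.42, 0.26, 1.22 and -2.08 in aldosterone lungs, against -1.18, -0.54, 1.34 and 0.38 in control lungs. Lungs 3 of both groups were the highest of their groups, whereas lungs 2 were for HBB probe 1, the fetal beta chain and AHSP, and control lung 4, low for AHSP, was the second highest control here. The log2 difference was -0.76 ± 0.86 on CA1 probe 1 and -0.88 ± 0.88 on CA1 probe 2.

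**Figure D1:**
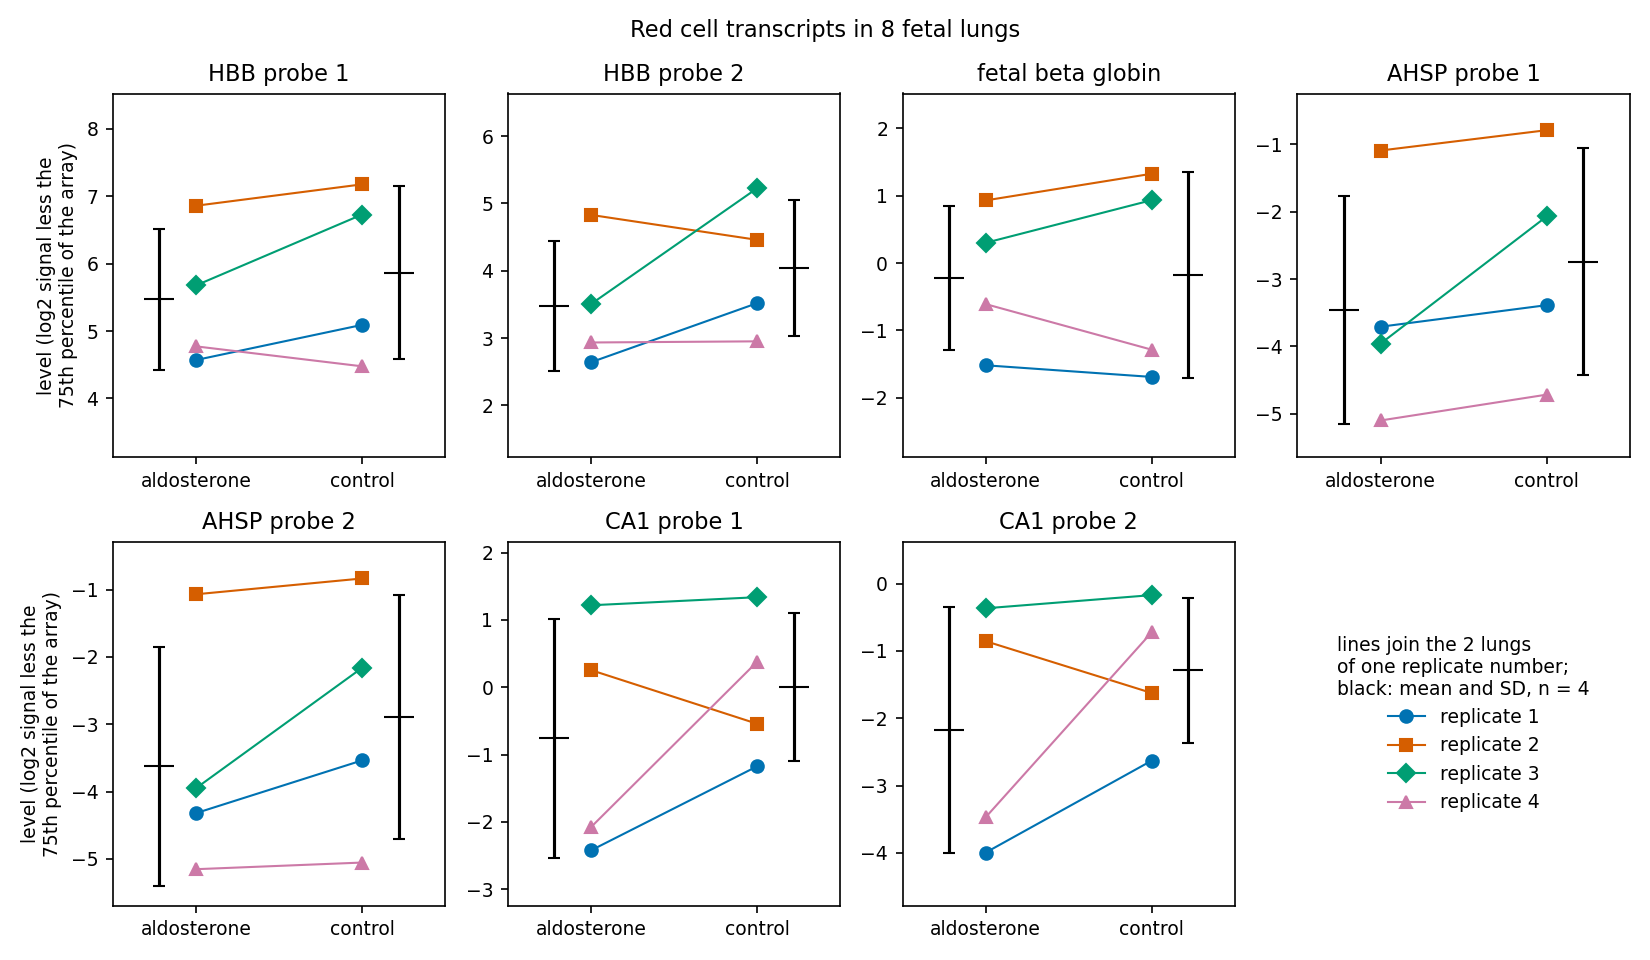
Level of each red cell probe (log2 signal less the array's 75th percentile) in aldosterone and control lungs, with lines joining lungs of the same replicate number and black bars for the mean and SD of 4 lungs. Lungs numbered 2 are high and lungs numbered 4 low for AHSP in both groups, the groups overlap for all 7 probes, and each panel spans the same number of log2 units.

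All 7 probes had a lower mean in aldosterone lungs, where 48.5% of the 12168 probes tested did. None of the 7 passed an adjusted p of 0.05 in limma, where 0% of all probes did, and none was under an unadjusted p of 0.05, where 1.87% of all probes were and 0.6% were so and lower. No member had groups that did not overlap, where 1.31% of probes did. The median difference of the 7 probes was -0.724 and that of all probes 0.0073, but pairs of probes share a transcript and all were read in the same 8 lungs, so they are not 7 separate readings. In exact two-sided permutation tests on single probes, p ran from 0.371 for CA1 probe 2 to 0.971 for the fetal beta chain, with 0.0286 the smallest p that 4 against 4 lungs allow.

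The lungs differed from each other far more for these transcripts than for most of the array. The SD over the 8 lungs was 1.11 for HBB probe 1, 1.22 for the fetal beta chain, 1.61 for AHSP probe 1 and 1.42 for CA1 probe 1, on the log2 scale, and the median probe had 0.286. Ranked by that SD among 12168 probes, AHSP probe 2 was 53rd, AHSP probe 1 66th, CA1 probe 2 92nd, CA1 probe 1 101st, the fetal beta chain 175th, HBB probe 1 246th and HBB probe 2 365th. From the lowest to the highest lung the range was 6.51-fold and 5.99-fold on the HBB probes, 8.10-fold for the fetal beta chain, and 13.6-fold and 14.2-fold on the CA1 probes, against 1.77-fold for the median probe. A range of 4-fold or more was seen for 7.51% of probes.

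**Figure D2:**
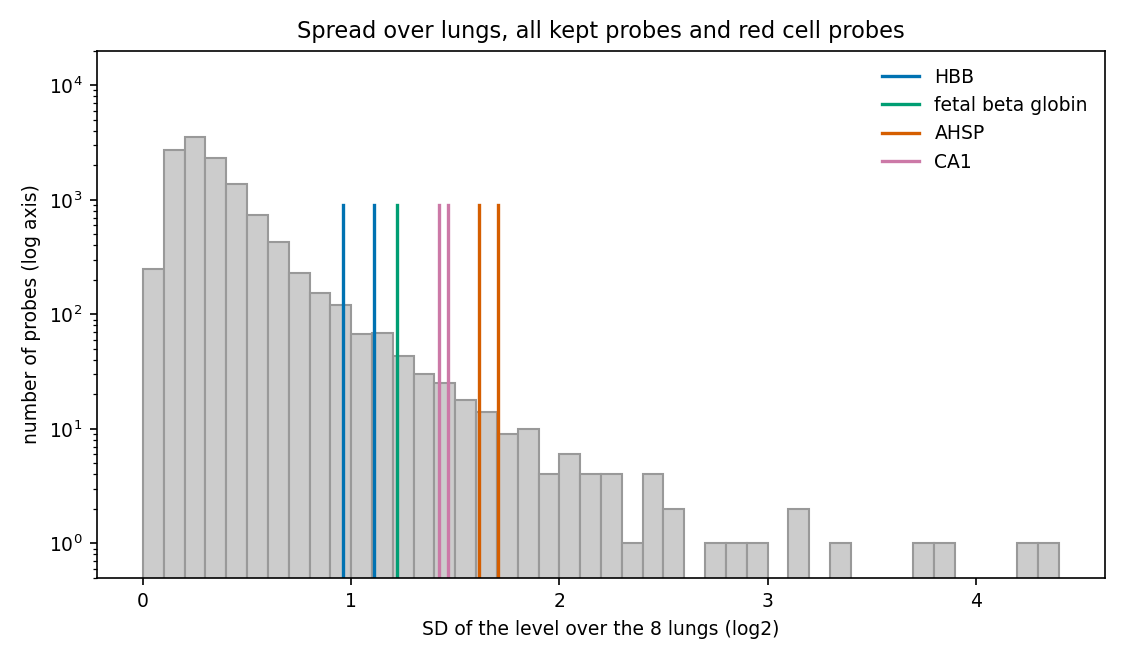
Histogram of the SD of the level over the 8 lungs for all 12168 probes tested (grey bars, log axis for the number of probes), with a vertical line for each red cell probe. The 7 lines lie from 0.96 for HBB probe 2 to 1.71 for AHSP probe 2, to the right of the median of 0.286.

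Much of that spread followed the replicate number. Lungs with the same number differed by 0.55 on average for HBB probe 1, while aldosterone and control lungs of different number differed by 1.43 (mean absolute log2 difference). The corresponding values were 0.47 and 1.63 for the fetal beta chain and 0.72 and 2.17 for AHSP probe 1. For CA1 probe 1 they were closer, at 1.16 and 1.83. The same-numbered difference was the smaller one for all 7 members and for 75.2% of all probes, where the medians were 0.249 and 0.350. The means of the pairs numbered 1 to 4 were 4.83, 7.02, 6.20 and 4.62 for HBB probe 1, and -3.55, -0.94, -3.01 and -4.91 for AHSP probe 1. For CA1 probe 1 they were -1.80, -0.14, 1.28 and -0.85, so pair 3 and not pair 2 was the highest.

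Within pairs, HBB probe 1 differed by -0.52, -0.32, -1.05 and 0.30 in pairs 1 to 4 (aldosterone minus control, log2). HBB probe 2 differed by -0.88, 0.37, -1.72 and -0.02. The 2 HBB probes thus had opposite signs in pairs 2 and 4, and both were lowest in pair 3. The fetal beta chain differed by 0.17, -0.40, -0.63 and 0.68.

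AHSP probe 1 differed by -0.32, -0.30, -1.89 and -0.38, lower in all 4 pairs, and AHSP probe 2 by -0.78, -0.23, -1.79 and -0.10. The 2 AHSP probes were the only members lower in all 4 pairs, as 5.64% of all probes were. CA1 probe 1 differed by -1.25, 0.80, -0.12 and -2.46, with its deepest difference in pair 4, where the HBB and AHSP probes lay between -0.38 and 0.30. In all, 6 of the 7 members were lower in 3 or more pairs, against 31.2% of all probes.

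Blocking on the replicate number gave a smaller SE: 0.22 for HBB probe 1, 0.23 for the fetal beta chain, 0.29 for AHSP probe 1 and 0.51 for CA1 probe 1. The adjusted p in limma was then 0.878 for each HBB, AHSP and CA1 probe and 0.981 for the fetal beta chain, so none passed, nor did any other probe (0%). The 2 AHSP probes had unadjusted p of 0.0480 and 0.0457, where 4.43% of all probes were under 0.05 and 1.61% were so and lower. The blocked interval (95%, limma) ran from -1.44 to -0.01 for AHSP probe 1 and from -0.94 to 0.14 for HBB probe 1. It ran from -0.61 to 0.52 for the fetal beta chain and from -2.22 to 0.45 for CA1 probe 2. Without pair 3 the blocked difference was -0.34 for AHSP probe 1, -0.37 for AHSP probe 2, -0.18 for HBB probe 1 and -0.17 for HBB probe 2.

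**Figure D3:**
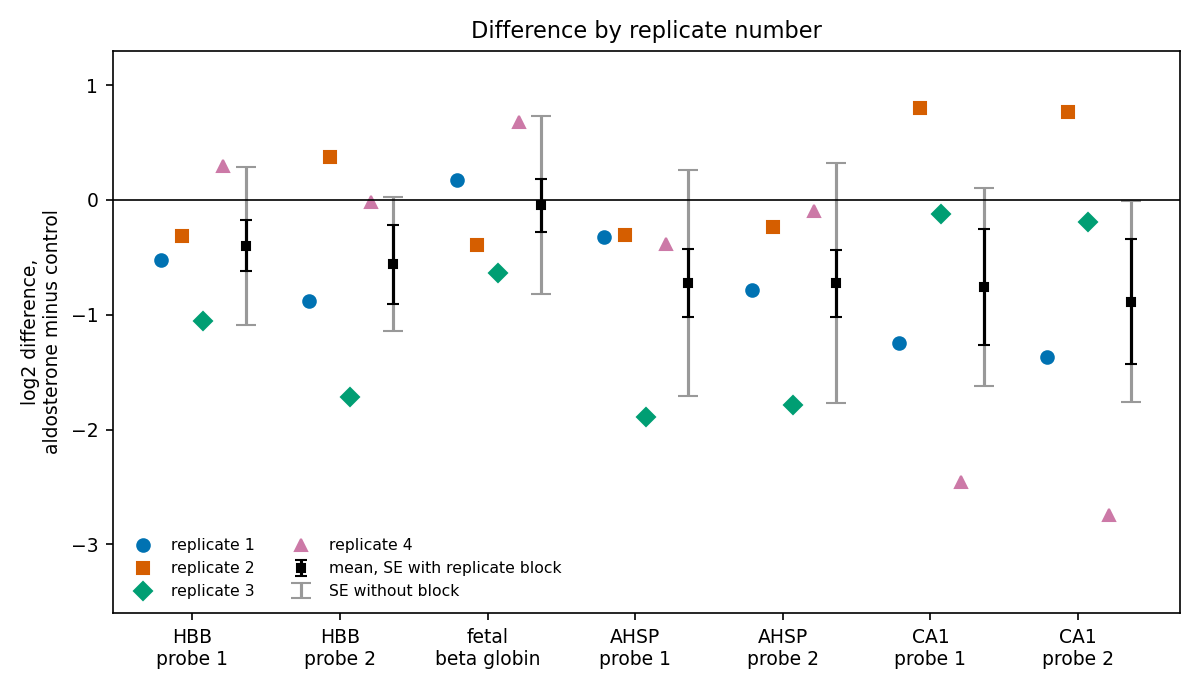
Log2 difference, aldosterone minus control, of each red cell probe in the 4 same-numbered pairs (coloured symbols), with the mean and its SE with the replicate block (black) and without it (grey). Pair 3 is the lowest for both HBB and both AHSP probes, pair 4 is the lowest for both CA1 probes at -2.46 and -2.75, and the fetal beta chain lies on both sides of 0.

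The HBB probes were then set against the fetal beta chain within each lung, with HBB probe 1 reading the adult and juvenile chains together. Whether the HBB probes also read the fetal chain was not checked, so these ratios may not separate the chains. A ratio of 2 probes has no absolute meaning, so only its differences between lungs are compared, and these ratios were chosen after the data were seen. The log2 ratio of HBB probe 1 over the fetal beta chain was 6.09, 5.93, 5.38 and 5.38 in aldosterone lungs, against 6.78, 5.85, 5.79 and 5.76 in control lungs. It was lower in the aldosterone lung of pairs 1, 3 and 4 and higher by 0.08 in pair 2, and the groups overlapped. The difference of the means was -0.35. HBB probe 2 gave a difference of -0.52, with pair differences of -1.05, 0.77, -1.09 and -0.69.

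AHSP probe 1 over the fetal beta chain was -2.19, -2.02, -4.26 and -4.49 in aldosterone lungs, against -1.70, -2.12, -3.01 and -3.43 in control lungs. Lungs 1 and 2 of both groups lay above lungs 3 and 4 of both groups, and the difference of the means was -0.68, or -1.09 to -0.26 with 1 lung left out. CA1 probe 1 over the fetal beta chain differed by -1.42, 1.19, 0.51 and -3.13 by pair, with 2 pairs on each side of 0. For the 6 ratios of this kind, exact two-sided permutation p ran from 0.286 to 0.457, and all were 0.457 after Benjamini-Hochberg adjustment over the 6 ratios.

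**Figure D4:**
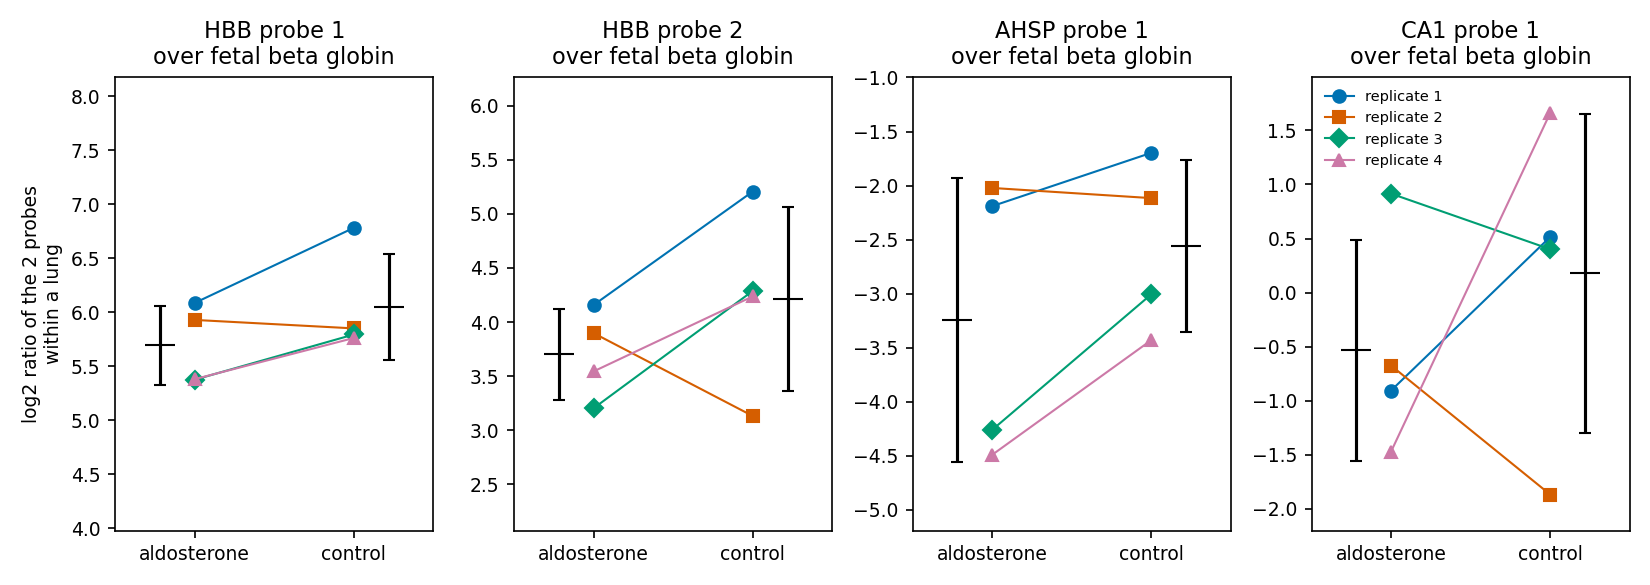
Log2 ratio of the HBB probes (probe 1 reads HBB and HBBC together), AHSP and CA1 over the fetal beta chain within each lung, with lines joining same-numbered lungs and black bars for the mean and SD of 4 lungs. In pair 2 all 4 ratios shown are higher in the aldosterone lung, in pair 1 all 4 ratios shown are lower in it, and the groups overlap in each panel.

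How alike the members were was measured as the root mean square distance between profiles over the 8 lungs, each centred on its own mean, in log2 units. The probe closest to HBB probe 1 among all 12168 was HBB probe 2 (0.38), and the next was the fetal beta chain (0.42). Those probes share no long run of bases, but whether each reads only its own chain was not checked. The AHSP probes stood at 0.69, ranks 29 and 30, and the CA1 probes at 1.18 and 1.20, farther than the median probe (1.07). From AHSP probe 1, HBB probe 1 was at rank 5 (0.69) and CA1 probe 1 at 1.68, against 1.54 for the median probe. Profiles were centred but not scaled to equal spread, and most probes varied less than the members. A widely varying probe could thus lie beyond the median probe even with a similar rise and fall. The 2 CA1 probes lay 0.20 apart. Seen from CA1 probe 1, HBB probe 2 was at rank 79 (1.05) and the fetal beta chain at rank 320 (1.16). HBB probe 1 was at rank 568 (1.20). Each of these was closer than the median probe (1.36), and AHSP probe 1 was farther (1.68). These distances describe 8 lungs on 1 slide and carry no test.

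Outside the set, the 5 named genes closest to AHSP probe 1 were BAC5 (0.96), CX32 (0.99), CATHL1B (1.01), SC5 (1.03) and SLC25A10 (1.04). BAC5, CATHL1B and SC5 are cathelicidins, antimicrobial peptide precursors made by myeloid cells. CX32 is a gap junction protein and SLC25A10 a mitochondrial dicarboxylate carrier. The 5 closest to HBB probe 1 were SLC25A10 (0.70), HOXC6 (0.70), the cytokine MIF (0.74), lactoferrin LTF (0.75) and the globin relative CYGB (0.75), each farther than both AHSP probes.

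Of 13 listed genes of neutrophils and their precursors, 5 were measured. None passed limma's adjusted threshold, where 0% of all probes did, and all 5 had lower means in aldosterone lungs, as 48.5% of all probes did. The 4 cathelicidins were lower in 4 of 4 pairs, as 5.64% of all probes were, and LTF in 3 of 4. The 5 genes were read in the same 8 lungs, so they are not 5 separate readings. Their summed level, in units of the array's 75th percentile, ran from 4.14 to 8.18 in aldosterone lungs and from 6.32 to 27.6 in control lungs. BAC5 had levels of 1.42, 1.67, 0.49 and 0.71 in aldosterone lungs, against 1.88, 3.31, 2.27 and 1.11 in control lungs. Control lung 2 was the highest of all lungs for each of the 5 genes, as for AHSP. Aldosterone lung 2 was the highest of its group for BAC5, SC5 and LTF, as for AHSP, but aldosterone lung 1 was for CATHL1B and CATHL3. SC5 had a log2 difference of -1.27 ± 0.49, CATHL3 -1.20 ± 0.39 (SE, n = 4 per group) and LTF, an iron-binding protein of neutrophil granules, -0.53 ± 0.41. The groups did not overlap for CATHL3 (as for 1.31% of all probes) and overlapped for the other listed neutrophil genes. CATHL3 ran from 0.06 to 0.45 in aldosterone lungs and from 0.51 to 2.50 in control lungs. None of the 5 was below background on every array, and the part of these cells in the red cell values was not tested.

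Few other genes of the red cell programme were named on the array. Of 67 genes in 5 lists of haem synthesis, red cell membrane, erythroid regulators, red cell enzymes and iron handling, 9 were measured besides CA1, and 0 passed, where 0% of all probes did; 5 had higher and 4 lower means. Their median difference was 0.01. Their ranges over the lungs, 1.32-fold to 2.80-fold, were all below those of the 7 members. Some genes of other lists ranged as widely, with SELP at 15.5-fold, TTR at 12.5-fold, ITGAM at 9.38-fold and BAC5 at 7.09-fold. The range of SELP came from control lung 4 (-0.48, where all other lungs lay from -4.43 to -3.51). ITGAM was well above background on only 4 of 8 arrays. EPOR, the erythropoietin receptor, had a log2 difference of -0.28 ± 0.21. KIT, the stem cell factor receptor, gave -0.07 ± 0.28 and was well above background on 5 of 8 arrays. UROD, a haem synthesis enzyme, gave 0.04 ± 0.16 and SLC25A38, which carries glycine into mitochondria for haem, 0.24 ± 0.27. FTH1, the heavy chain of the iron store ferritin, gave -0.01 ± 0.14 and transferrin TF -0.17 ± 0.35. AQP1, a water channel of red cells that endothelium also makes, gave 0.55 ± 0.17, higher in 4 of 4 pairs, with groups that did not overlap (as for 1.31% of all probes) and an adjusted p above the threshold. The glycolytic enzymes HK1 and ALDOA gave 0.01 ± 0.27 and 0.05 ± 0.30. EPO, PKLR and CP were on the array but were well above background on fewer than 4 arrays.

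Lists of plasma proteins, other blood cells and lung cells gave values on both sides of 0. The 4 measured liver-made plasma proteins had 2 higher and 2 lower means, with ALB at -0.15 ± 0.35, TTR at 0.22 ± 0.71, APOA1 at 0.31 ± 0.27 and AHSG at -0.20 ± 0.40. Of 3 general leukocyte genes 1 was higher and 2 lower, with CD14 at 0.42 ± 0.23, CD3E at -0.08 ± 0.35 and ITGAM (well above background on 4 of 8 arrays) at -0.84 ± 0.65. SELP, the platelet and endothelial selectin and the only platelet gene measured, gave -0.34 ± 0.77, but it was higher in 3 of 4 pairs and its difference was 0.58 without control lung 4. The lung endothelium genes PECAM1, KDR and FLT1 gave 0.07 ± 0.17, 0.18 ± 0.22 and -0.28 ± 0.43, with FLT1 well above background on 4 of 8 arrays. The surfactant genes SFTPA1, SFTPB and SFTPC, which mark lung epithelium, were well above background on all 8 arrays and gave -0.25 ± 0.23, -0.10 ± 0.25 and 0.03 ± 0.19, and AQP5 gave -0.05 ± 0.32.

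The share of spots well above background was 76.5% to 81.6% in aldosterone arrays and 80.4% to 85.4% in control arrays. The lowest and the highest share belonged to the 2 arrays numbered 4, where CA1 differed most; the part of this in the CA1 values was not tested. Same-numbered arrays lay side by side on the slide, so replicate number and slide position cannot be told apart. Within the slide row of pairs 1 and 2 the difference was -0.42 for HBB probe 1, -0.31 for AHSP probe 1 and -0.23 for CA1 probe 1, and within that of pairs 3 and 4 it was -0.38, -1.14 and -1.29.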

How the data were processed

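Total RNA of 8 fetal lungs (450 ng each) was measured on 1-colour Agilent arrays of 60-base probes, all on 1 slide. The deposited scanner files hold spot intensity, which per the file headers Agilent Feature Extraction 10.1.1.1 corrected for spatial and multiplicative trends. Values in the authors' deposited table are log2: each array's processed intensity on that scale, shifted so that the median is 0. They served as an alternative. Flags of the scanner software are a further deposited kind of value (other than intensity): 74 spots with outlier flags were left out, and 12168 of 15008 probes were kept, those well above background on 4 arrays or more.

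Each array was scaled to its 75th percentile on the log2 scale and spots of a probe were averaged. Groups were compared with limma 3.58.1 (R 4.3.3). Tests were two-sided, and p-values were adjusted by Benjamini-Hochberg over the 12168 probes, with a threshold of 0.05. For a gene outside the set, the probe with the highest mean was used. Names came from RefSeq (assembly ARS-UI_Ramb_v3.0) by accession for 726 probes. The fit was tested on simulated data. Alternatives were another background correction and normalization, median centring, no filter, outlier flags kept, array weights, the replicate block, the mean of a gene's probes, a permutation test and each lung left out.

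After removal of group means, same-numbered samples correlated at 0.446, 0.275, 0.280 and 0.538 over 12146 probes, against -0.449 to 0.203 for the others. Same-numbered samples were therefore treated as pairs. The labels speak of twins without saying that a number marks a twin set. Same-numbered arrays also lay side by side in the same slide row, so a twin set and array position cannot be told apart. Arrays of different number correlated at 0.203, 0.095, 0.110 and -0.039 within a row, and from -0.449 to -0.067 across rows. The number of arrays limits the precision. The members and gene lists were chosen with earlier results of these data known. Named genes are all members, the measured genes of the lists, and the 5 named genes nearest to HBB and to AHSP in profile.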

Additional observations from a re-analysis of the deposited data

Results flagged for a closer look

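In 6 of 136 groups of 4 lungs checked, 1 lung stood apart from the other 3 by its gap over the group's range (Dixon's 95% critical value), and chance gives about 1 in 20, or 6.8. The log2 ratio of HBB probe 1 over the fetal beta chain was 6.78 in control lung 1, above the other controls. Aldosterone lung 1 stood apart from its group for EPOR at -4.00, KIT at -7.30, FTH1 at 7.32 and SFTPC at 7.97, above the others for EPOR and below them for KIT, FTH1 and SFTPC. The KIT value lay below the lowest level well above background on that array (-6.78). SELP was at -0.48 in control lung 4, where the other controls lay from -4.43 to -3.90, and without it the log2 difference of SELP, -0.34 over all lungs, was 0.58. None of the 7 red cell probes themselves had such a lung.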

How the results depend on the processing

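No member passed an adjusted p of 0.05 in limma in any setting run, and under the 59 recalculations that kept all 8 lungs every member difference stayed below 0. Of these, the replicate block, the lack of a filter and the permutation test leave the difference itself unchanged, so they could not turn its sign. Leaving out 1 lung moved the differences from -0.86 to 0.04 for HBB probe 1 (0.04 without control lung 2), -1.01 to -0.17 for HBB probe 2, -0.55 to 0.46 for the fetal beta chain, -1.51 to -0.07 and -1.58 to -0.04 for AHSP probes 1 and 2, and -1.41 to -0.20 and -1.49 to -0.28 for CA1 probes 1 and 2. The fetal beta chain was above 0 without aldosterone lung 1 (0.39) or 4 (0.08) and without control lung 2 (0.46) or 3 (0.33). With the replicate block and 1 pair left out (chosen after seeing the data), it ran from -0.29 to 0.15 and was above 0 without pair 2 (0.07) or pair 3 (0.15). AHSP probe 1 then ran from -0.86 to -0.34, HBB probe 1 from -0.63 to -0.18 and CA1 probe 1 from -1.27 to -0.19. The HBB probe 1 ratio to the fetal beta chain ran from -0.49 to -0.11 that of HBB probe 2 from -0.88 to -0.19, that of AHSP probe 1 from -1.09 to -0.26 and that of CA1 probe 1 from -1.39 to -0.22. Leaving out 1 lung (chosen after seeing the data) turned the sign of 16 of the 29 list genes, SELP to 0.58 without control lung 4. Array weights gave -1.69 for AHSP probe 1, -0.92 for HBB probe 1 and -0.12 for CA1 probe 1, and normexp with quantile normalization gave -0.47, -0.43 and -0.62. Probes at an unadjusted p under 0.05 numbered 228, but 539 with the replicate block, 932 with array weights, 143 to 422 with 1 lung left out, and 321, 465, 565 and 929 with the block and 1 pair left out; the cause was not tested. The block changed no call.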

Other observations

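The probes nearest to AHSP in profile were not named genes. Chosen after their values were seen, the unnamed probes A_70_P037526 (distance 0.30), A_70_P040301 (0.32) and A_70_P055016 (0.52, well above background on 5 of 8 arrays) were closer to AHSP probe 1 than any globin probe. A_70_P040301 had levels of 0.53, 3.94, 1.15 and -0.43 in aldosterone lungs, against 1.52, 3.89, 3.28 and 0.31 in control lungs, with the lungs numbered 2 highest in both groups. For the fetal beta chain the nearest probe of all was the unnamed A_70_P027651 (0.37), with levels of -0.33, 2.57, 2.13 and -0.10 in aldosterone lungs, against -0.36, 2.73, 2.00 and -0.11 in control lungs, and a log2 difference of 0.01 ± 0.88. For CA1 it was, after the other CA1 probe, A_70_P025751 (0.49), highest in the lungs numbered 3 at -0.35 in the aldosterone lung and -0.02 in the control lung.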
